A study of Homo sapiens with 4 samples.

Results

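Mucin-type O-glycans are sugar chains built in the Golgi on serine and threonine. GalNAc-transferases such as GALNT3 and GALNT6 attach the first sugar, N-acetylgalactosamine (GalNAc), which gives the Tn antigen. The genes described here act on that GalNAc: they build the core structures (C1GALT1 with its chaperone C1GALT1C1, GCNT1, GCNT3, GCNT4 and B3GNT6) or cap the short chains with sialic acid (ST6GALNAC1, ST6GALNAC2 and ST3GAL1). Truncated O-glycans (Tn, sialyl-Tn and the core 1 disaccharide, or T antigen) are known markers of carcinomas, epithelial ovarian cancer (EOC) among them. The 9 genes were taken by their gene name on the array, out of 29123 gene names, and were read by 14 of 41000 probes. All 9 were among the 27225 genes that passed the filter on dim probes. GCNT1 passed it only through the arrays on which it was high.

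A2780s, the parental line of every sample, is a long-cultured human EOC line. The GALNT3 KO group is 2 clones in which GALNT3 was disrupted by CRISPR/Cas9. The GALNT3/T6 KO group is 2 clones made from GALNT3 KO cells by shRNA against GALNT6, so the shRNA vector and its selection come with this group. Ctrl is mock-transfected A2780s RNA, labelled with Cy3 and hybridized beside the Cy5-labelled KO RNA on each of the 4 two-colour arrays. The study asked how gene expression changed with single and with double GalNAc-transferase loss. All values below are log2 ratios of KO over Ctrl unless a channel level is named, and a gene was called at an adjusted p of at most 0.05 (Benjamini-Hochberg, over all genes tested, from limma).

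The labels were checked on the targeted genes. On the 2 GALNT3 KO arrays neither channel of GALNT3 was well above background, so its ratio cannot show the knockout there. On the other 2 arrays its Ctrl channel was well above background. The study describes strong GALNT3 expression in A2780s, and why the Ctrl channels differed was not tested. In the group labelled GALNT3/T6 KO the log2 ratio of GALNT3 was 4.80 and 5.08, which goes against the label. The group is named by its label throughout. Every direction given for it rests on the labels, which put KO in the Cy5 channel; with the channels of its 2 arrays turned, all its ratios change sign. Whether these arrays hold other RNA or the other dye orientation than labelled was not tested. GALNT6 stood at -0.47 and -0.38 in GALNT3 KO and at -0.66 and -0.69 in the group labelled GALNT3/T6 KO. It was called lower than Ctrl in both groups (adjusted p = 0.0446 and 0.00335 from limma). Only the second group was given shRNA against GALNT6. The difference between them of -0.25 was not called (adjusted p = 0.212 from limma), so GALNT6 does not mark the shRNA group here. The study reports higher GALNT6 protein in GALNT3 KO clones, while these values are RNA. The 2 arrays of the GALNT3 KO group correlated at r = 0.835 across genes and the 2 arrays labelled GALNT3/T6 KO at 0.917, against 0.205 to 0.324 between groups. Genes are not independent replicates, so these are descriptions. Per channel, 86.9% to 93.8% of spots were well above background, and no spot was saturated. All 4 leukocyte markers passed that flag too, so it does not show that these cells use a gene.

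Cell type markers moved with the group. Of 9 markers of ovarian epithelial carcinoma, 0 were called in GALNT3 KO by limma (2 at an unadjusted p under 0.05). Over all genes, 4.69% were higher and 6.34% lower in that group. In the group labelled GALNT3/T6 KO 7 markers were higher and 0 lower, where 24.8% of all genes were higher and 23.1% lower. MUC16 stood at 0.11 and 0.003 on those arrays and EPCAM at -0.05 and 1.36. KRT18, a simple epithelial keratin, reached a log2 ratio of 5.68 there (adjusted p = 0.000105 from limma). The summed KO channel level of the 9 markers was 9880 to 11600 on the GALNT3 KO arrays and 882000 to 947000 on the others. Of 6 mesenchymal markers, 1 was higher and 1 lower in GALNT3 KO, and 1 was higher and 4 lower in the group labelled GALNT3/T6 KO. VIM, the mesenchymal intermediate filament, fell by 2.36 there (adjusted p = 0.00206 from limma). COL1A1, the mesenchymal marker called higher, stood at 1.77 and 2.20 on the same arrays. The summed KO level of the mesenchymal markers was 384000 to 461000 in GALNT3 KO and 95600 to 188000 in the group labelled GALNT3/T6 KO. The summed Ctrl level differed as well, at 8280 to 9260 against 33700 to 46500 for the epithelial and 196000 to 233000 against 602000 to 603000 for the mesenchymal markers. Of the 4 leukocyte markers 1 was lower in the group labelled GALNT3/T6 KO, and of the 2 endothelial and 2 erythroid markers tested 1 each was higher. A sum of levels rests mostly on the brightest markers. The part of these marker shifts in the results below was not tested.

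Of the core genes, C1GALT1, C1GALT1C1, GCNT1, GCNT3 and B3GNT6 were called higher in the group labelled GALNT3/T6 KO and GCNT4 was not, and of the capping genes ST3GAL1 was higher and ST6GALNAC2 lower. In GALNT3 KO, 0 members were called higher by limma, where 4.69% of all genes were, and 1 lower, GCNT4, where 6.34% were. At an unadjusted p under 0.05 the higher count was 1, ST6GALNAC1. In the group labelled GALNT3/T6 KO, 6 members were higher, against 24.8% of all genes, and 1 was lower, against 23.1%. With the channels of these arrays turned, a setting chosen after seeing the data, 1 would be higher and 6 lower. Set against GALNT3 KO directly, 5 members were higher on those arrays (11.8% of all genes) and 1 was lower (11.8%). GCNT1 is among the higher members in both comparisons, though it passed the filter only through the arrays on which it was high. With signal required on all 4 arrays, 6 and 5 members were called in either direction. At the study's cut-offs, an unadjusted p of at most 0.05 and at least 1.5-fold, 0, 5 and 5 members changed, where 9.6%, 31.8% and 26.9% of all genes did. Only the cut-offs are the study's: the p values are from limma, and the study does not name its test for the arrays. The median log2 ratio of the members was 0.08 in GALNT3 KO and 1.13 in the group labelled GALNT3/T6 KO, beside 0.02 and 0.03 over all genes. The median difference between the groups was 1.17 over the members and -0.00 over all genes. Each group has 2 clones and the Ctrl has no arrays of its own, so the spread of Ctrl is left out of the tests against it. Both groups were read against Ctrl RNA, and the comparison between them uses the same arrays.

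**Figure D1:**
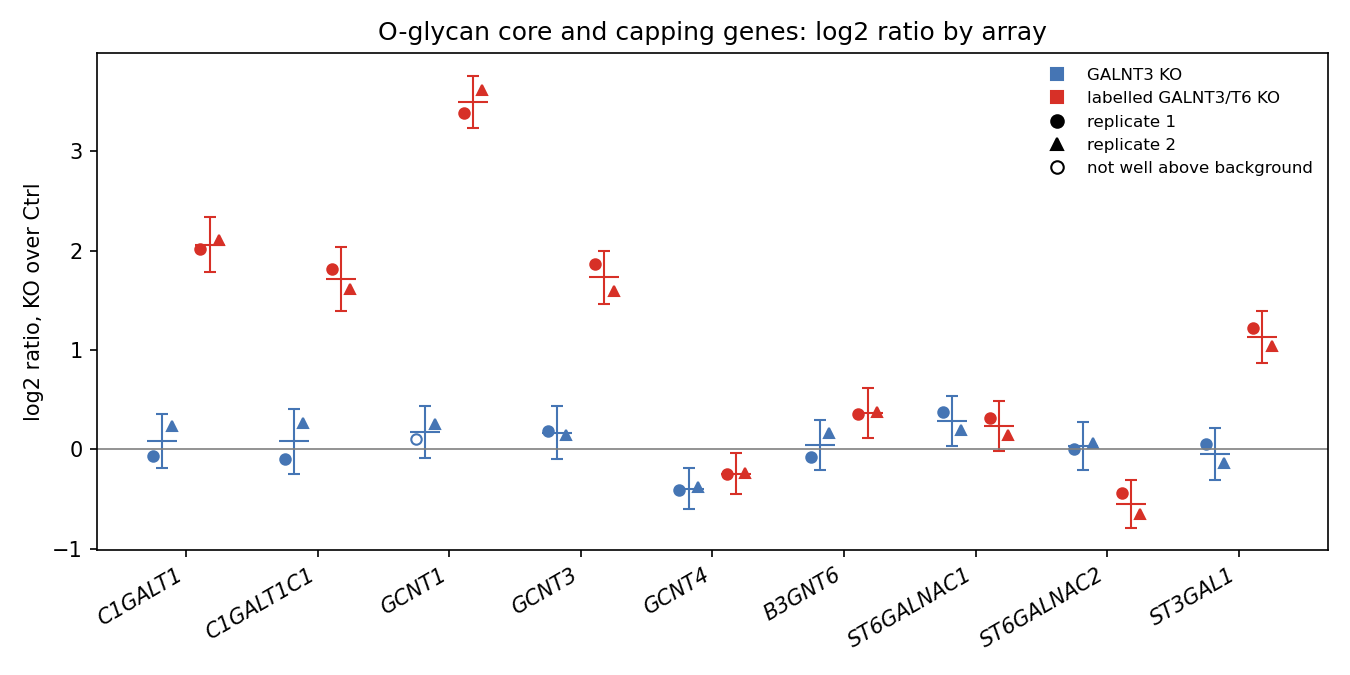
Log2 ratio of KO over Ctrl (vertical axis) for the 9 genes, with circles and triangles for replicates 1 and 2, a dash for the limma mean of a group of 2 arrays and bars for its 95% interval; an open symbol was not well above background. C1GALT1, C1GALT1C1, GCNT1, GCNT3 and ST3GAL1 sit at 1.04 or more on both arrays labelled GALNT3/T6 KO and between -0.14 and 0.27 in GALNT3 KO.

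C1GALT1, the core 1 synthase, adds galactose to the GalNAc and so turns Tn into T antigen. Its brighter probe covers chr7:7283565-7283624 (hg19, plus strand) and gave -0.06 and 0.23 on the GALNT3 KO arrays, then 2.01 and 2.11 in the group labelled GALNT3/T6 KO. The groups did not overlap, and the 2 clones of the latter lay 0.09 apart. The mean was 0.08 ± 0.21 (SD, n = 2) in GALNT3 KO, with an adjusted p of 0.588 from limma. In the group labelled GALNT3/T6 KO it was 2.06 ± 0.07 (SD, n = 2), which is 4.17-fold higher than Ctrl (adjusted p = 0.000322 from limma). Against GALNT3 KO the rise was 3.94-fold (95% interval 1.59 to 2.37 on the log2 scale, adjusted p = 0.0018 from limma). In a clonal culture, more cells that express a gene and more RNA per cell cannot be told apart.

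C1GALT1 has another probe, at chr7:7286668-7286727, which did not follow. It gave -0.79 and -0.82 in GALNT3 KO and -0.26 and -0.55 in the group labelled GALNT3/T6 KO. Fitted on its own this probe was lower than Ctrl in both groups, by means of -0.80 (adjusted p = 0.0255 from limma) and -0.40 (adjusted p = 0.0307 from limma). It differed by 0.40 between the groups (adjusted p = 0.124 from limma), which misses the threshold. The probes start 3103 bases apart and their ratios differed by 2.46 in the group labelled GALNT3/T6 KO. With the mean of both probes the value there was 0.83 (adjusted p = 0.00169 from limma), still higher, and in GALNT3 KO it turned to -0.36 (adjusted p = 0.0589 from limma). The dimmer probe is rich in A and T, with 23.3% G and C against 35% for the brighter one. The opening 30 bases of both are shown in lower case, because the C1GALT1 call turns on which is read.
C1GALT1 brighter probe, 5′ to 3′: atatgtctatatatatgaggaacttgtgtt
C1GALT1 dimmer probe, 5′ to 3′: tacataatttattaaaaacatacataagtg
The array's annotation gives both probes the same RefSeq transcript, NM_020156, and their exons were not read here.

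C1GALT1C1, also called Cosmc, is the endoplasmic reticulum chaperone that C1GALT1 needs to fold, and cells without it make Tn and sialyl-Tn. Its probe lies at chrX:119760117-119760176 (hg19, minus strand). The log2 ratios were -0.10 and 0.27 in GALNT3 KO and 1.82 and 1.62 in the group labelled GALNT3/T6 KO. Both clones of the second group stood above both of the first. The mean was 0.08 ± 0.26 (SD, n = 2) in GALNT3 KO (adjusted p = 0.653 from limma). It was 1.72 ± 0.14 (SD, n = 2) in the group labelled GALNT3/T6 KO, 3.28-fold higher than Ctrl (adjusted p = 0.000781 from limma) and 3.10-fold higher than in GALNT3 KO (adjusted p = 0.00472 from limma). C1GALT1C1 thus moved with the brighter C1GALT1 probe, whose ratio exceeded it by 0.20 and 0.49 on the 2 arrays. Agilent's own log ratio gave 1.23 for C1GALT1C1 (adjusted p = 0.00259 from limma).

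GCNT1 makes core 2 by adding a branching N-acetylglucosamine to core 1, and of the 9 genes it had the largest ratio in the group labelled GALNT3/T6 KO. Its probe lies at chr9:79118757-79118816 (hg19, plus strand). The log2 ratios were 0.10 and 0.25 in GALNT3 KO and 3.39 and 3.61 in the group labelled GALNT3/T6 KO, with no overlap. The rise over Ctrl was 11.3-fold (3.50 ± 0.16 on the log2 scale, SD, n = 2, adjusted p = 0.000104 from limma), and 0.944% of all genes had a higher ratio. In GALNT3 KO the mean was 0.18 (adjusted p = 0.262 from limma). That value is not exact, because on GALNT3 KO replicate 1 neither channel was well above background, so 1 of the 2 arrays measured it. The difference between the groups, 3.32 on the log2 scale (adjusted p = 0.00053 from limma), is not exact either, and GCNT1 was tested because the arrays on which it was high passed the filter. Without the dim array it was 3.25 (adjusted p = 0.0343 from limma). Set channel against channel, the KO level was about 14.3-fold higher in the group labelled GALNT3/T6 KO, taking the dim array at its own signal. Read the same way, the Ctrl level was 1.43-fold higher there as well, and by ratio the difference was 10.0-fold. The Ctrl level was 6.77 and 6.89 on the GALNT3 KO arrays, the first of them not well above background, and 7.25 and 7.43 on the others. A filter that asked for signal on all 4 arrays removed GCNT1.

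GCNT3, the mucin-type core 2 enzyme that also makes core 4, rose less. Its brighter probe (chr15:59912119-59912178, hg19, plus strand) gave 0.19 and 0.14 in GALNT3 KO and 1.87 and 1.59 in the group labelled GALNT3/T6 KO. The 2 pairs were well apart. The mean of the second pair, 1.73 ± 0.20 (SD, n = 2), was 3.32-fold above Ctrl (adjusted p = 0.000449 from limma) and 2.96-fold above GALNT3 KO (adjusted p = 0.00302 from limma). In GALNT3 KO the mean was 0.17 (adjusted p = 0.291 from limma). A dimmer GCNT3 probe, 755 bases away, was well above background only in the KO channel of the arrays labelled GALNT3/T6 KO, on both of them. It was at least 1.78-fold higher there than in the Ctrl channel, and since it passed the filter through that channel alone, no test is given. That bound sets the mean KO level against the higher of the Ctrl signal and the lowest signal counted as above background, and it is open to dye bias.

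GCNT4, another core 2 enzyme, went the other way. Its log2 ratios were -0.41 and -0.38 in GALNT3 KO and -0.25 and -0.24 in the group labelled GALNT3/T6 KO. All 4 arrays were below Ctrl, the GALNT3 KO pair lower, and the pairs did not overlap. The fall of 0.39 in GALNT3 KO, 1.31-fold, was the only member call in that group (adjusted p = 0.0478 from limma), and it was lost when GALNT3 KO replicate 1 (adjusted p = 0.293 from limma) or replicate 2 (adjusted p = 0.415 from limma) was left out. Over all settings the adjusted p ran from 0.0139 to 0.415. The mean of -0.24 in the group labelled GALNT3/T6 KO missed the threshold (adjusted p = 0.0578 from limma), and with Agilent's log ratio it turned to 0.0671. The groups differed by 0.15 (95% interval -0.14 to 0.44, adjusted p = 0.441 from limma). GCNT1 stood 3.64 and 3.85 above GCNT4 in log2 ratio on these 2 arrays, so the core 2 genes changed unequally.

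B3GNT6, the core 3 synthase known from gut epithelium, uses the same GalNAc as C1GALT1. The brighter probe (chr11:76751599-76751659, hg19, plus strand) gave -0.08 and 0.17 in GALNT3 KO and 0.36 and 0.37 in the group labelled GALNT3/T6 KO. The groups did not overlap, but the step was small. The mean of 0.37 was 1.29-fold above Ctrl (adjusted p = 0.0341 from limma). B3GNT6 was no longer called without any 1 of the 4 arrays, at an adjusted p of 0.0666 without either GALNT3 KO array and of 0.0684 and 0.074 without replicate 1 or 2 of the other group (limma). It was also lost with the mean of both probes (0.18, adjusted p = 0.119 from limma), and over all settings, the other probe alone included, the adjusted p ran from 0.0217 to 0.974. The other B3GNT6 probe gave -0.02 and 0.02 in the group labelled GALNT3/T6 KO. The difference between the groups was 0.32 (95% interval -0.04 to 0.68, adjusted p = 0.182 from limma).

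The sialyltransferases that cap the GalNAc itself were not called higher in either group. ST6GALNAC1, the sialyl-Tn synthase, gave 0.38 and 0.19 in GALNT3 KO and 0.32 and 0.15 in the group labelled GALNT3/T6 KO. All 4 arrays were above Ctrl and the groups overlapped. The means of 0.28 and 0.23 missed the threshold (adjusted p = 0.116 and 0.108 from limma), and the difference of -0.05 had a 95% interval of -0.41 to 0.31. Its probe lies at chr17:74621111-74621170 (hg19, minus strand).

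ST6GALNAC2 adds sialic acid to the GalNAc of Tn and T antigens. Its brighter probe (chr17:74561036-74561095, hg19, minus strand) gave 0.01 and 0.07 in GALNT3 KO and -0.44 and -0.65 in the group labelled GALNT3/T6 KO. It was the one member called lower on those arrays, by 1.46-fold (-0.55 ± 0.14, SD, n = 2, adjusted p = 0.00933 from limma), and it fell by 0.58 relative to GALNT3 KO (adjusted p = 0.0365 from limma). The other ST6GALNAC2 probe, 724 bases away, stood at 0.18 and 0.33 on the same arrays (mean 0.26, adjusted p = 0.089 from limma). The array's annotation ties the brighter probe to ENST00000589997 and the other to NM_006456. With the mean of both probes the value was -0.14 (adjusted p = 0.171 from limma) and the difference -0.24 (adjusted p = 0.187 from limma). The call of the difference was lost too, at a similar size, without GALNT3 KO replicate 1 (-0.61, adjusted p = 0.193 from limma), without GALNT3 KO replicate 2 (-0.55, 0.219) and without GALNT3/T6 KO replicate 2 (-0.48, 0.0548).

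ST3GAL1 caps the galactose of core 1 with sialic acid, which gives sialyl-T and blocks core 2 branching. Its brighter probe gave 0.05 and -0.14 in GALNT3 KO and 1.22 and 1.04 in the group labelled GALNT3/T6 KO, with no overlap. The mean there was 1.13 ± 0.13 (SD, n = 2), 2.19-fold above Ctrl (adjusted p = 0.00136 from limma) and 2.26-fold above GALNT3 KO (adjusted p = 0.00632 from limma). The other ST3GAL1 probe, 168 bases away, rose as well, at 2.03 and 1.81 (mean 1.92, adjusted p = 0.000347 from limma). In GALNT3 KO the mean of -0.04 (adjusted p = 0.767 from limma) turned positive with Agilent's log ratio, to 0.31. The log2 ratio of ST3GAL1, read with the brighter probe, minus that of its competitor GCNT1 was -2.16 and -2.57 in the group labelled GALNT3/T6 KO, and -0.05 and -0.39 in GALNT3 KO.

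With a GALNT3 KO array left out, that group is 1 sample assumed to vary like the other group, whose 2 arrays alone give the spread. The differences kept about their size while some calls were lost. Without GALNT3 KO replicate 1 the difference was 1.45 for C1GALT1C1 (adjusted p = 0.0627 from limma), 1.59 for GCNT3 (0.065) and 1.27 for ST3GAL1 (0.0706), beside 1.63, 1.57 and 1.17 with all arrays. Without replicate 2 it was 1.54 for GCNT3 (0.0635) and 1.08 for ST3GAL1 (0.0828). C1GALT1 stayed called with any 1 array left out. So did GCNT1, which passed the filter only through the arrays on which it was high. Without GALNT3 KO replicate 2, its only GALNT3 KO value came from the array on which neither channel was well above background.

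Levels of each channel were compared between conditions within a gene, as log2 values after scaling between arrays. For C1GALT1 the KO level was 11.83 ± 0.01 in the group labelled GALNT3/T6 KO, against 9.97 ± 0.11 in GALNT3 KO, while Ctrl stood at 9.88 ± 0.10 beside GALNT3 KO and at 9.77 ± 0.05 beside GALNT3/T6 KO (SD, n = 2 each). C1GALT1C1 had the same order, with 13.76 ± 0.21 at the top, then 12.25 ± 0.08 in GALNT3 KO, and 12.17 ± 0.18 and 12.04 ± 0.07 in Ctrl. In both orders the lower neighbours lay about as far apart as their SDs. GCNT3 stood at 10.70 ± 0.17 in the group labelled GALNT3/T6 KO and at 9.35 ± 0.47 in GALNT3 KO, with Ctrl at 9.18 ± 0.43 and 8.97 ± 0.03. ST3GAL1 stood at 10.32 ± 0.19 and 9.03 ± 0.42, with Ctrl at 9.07 ± 0.29 and 9.18 ± 0.06. In each of these genes the KO level of the arrays labelled GALNT3/T6 KO was the highest, and for GCNT3 and ST3GAL1 the mean ± SD of the other 3 conditions overlapped.

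GCNT1 reached 10.84 ± 0.29 in the group labelled GALNT3/T6 KO, above 7.34 ± 0.13 for its Ctrl there and 7.01 ± 0.19 in GALNT3 KO, where 1 of the 2 arrays measured it. For the members not called between the groups, levels differed most between the 2 GALNT3 KO arrays. ST6GALNAC1, at 8.82 ± 0.95 in GALNT3 KO, was 9.49 in replicate 1 and 8.15 in replicate 2, and its Ctrl level differed alongside, at 9.12 and 7.96. GCNT4 on these arrays was 8.66 and 7.95, with Ctrl at 9.08 and 8.33. B3GNT6 differed the opposite way, at 8.69 and 9.57, with Ctrl at 8.77 and 9.41. For ST6GALNAC2, the KO level of 8.18 ± 0.23 in the group labelled GALNT3/T6 KO was the lowest of the conditions, beside 8.73 ± 0.08 for its Ctrl. Compared by KO level alone, a setting chosen after seeing the data, C1GALT1 (1.87), C1GALT1C1 (1.51), GCNT1 (3.84, with the dim array), GCNT3 (1.35) and ST3GAL1 (1.29) were again called higher than in GALNT3 KO, and ST6GALNAC2 was not called (-0.58, adjusted p = 0.26 from limma).

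**Figure D2:**
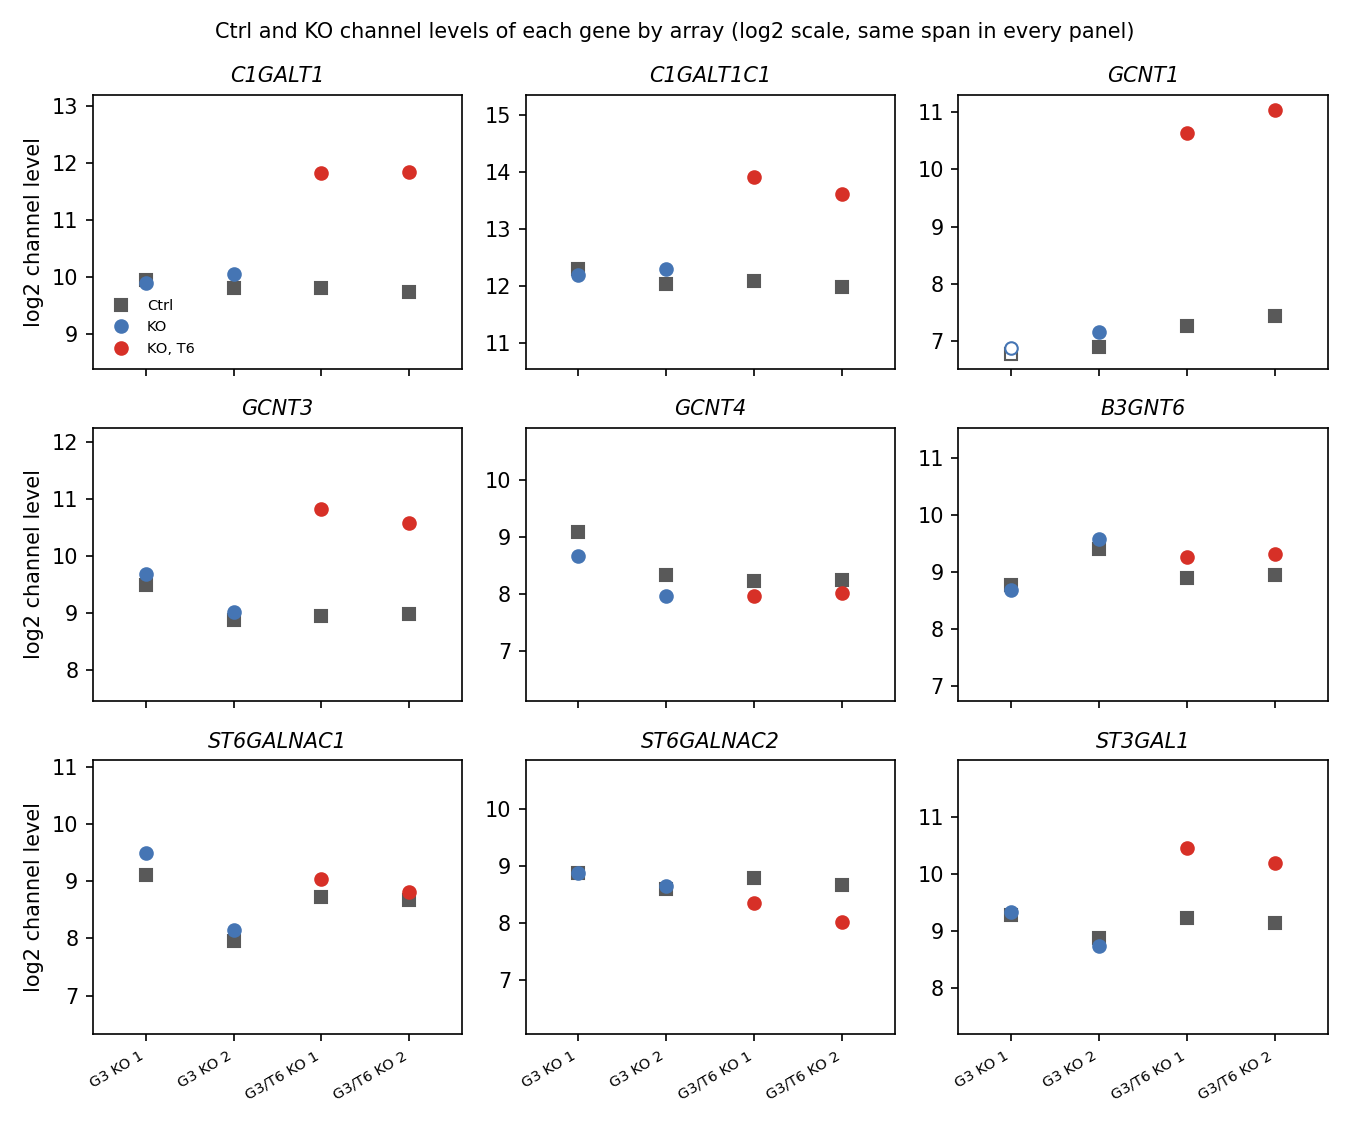
Log2 channel level (vertical axis) of each gene on the 4 arrays, with grey squares for Ctrl and circles for KO; open symbols were not well above background, and every panel spans the same range on the log2 scale. For C1GALT1 the Ctrl levels lie between 9.73 and 9.95, and the KO level parts from Ctrl in the group labelled GALNT3/T6 KO, at 11.83 and 11.84.

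The other genes of the pathway were called in both directions, and their shares stand beside those over all genes, which were 4.69% higher and 6.34% lower in GALNT3 KO and 24.8% and 23.1% in the group labelled GALNT3/T6 KO. Of 17 initiating GalNAc-transferases tested, 3 were higher and 1 lower in GALNT3 KO (17.6% and 5.88%), and 4 higher and 5 lower in the group labelled GALNT3/T6 KO (23.5% and 29.4%). In the latter these shares were close to those of all genes. GALNT4 rose by a log2 ratio of 0.97 in GALNT3 KO (adjusted p = 0.014 from limma) and fell by 2.62 in the group labelled GALNT3/T6 KO (adjusted p = 0.000109 from limma). GALNT7, which prefers peptides that already carry GalNAc, followed the same course, at 1.40 and -0.58. GALNT3 itself had a mean of 4.94 in the group labelled GALNT3/T6 KO. The median of this list was 0.18 and -0.12, beside 0.08 and 1.13 for the 9 members.

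Of 9 other enzymes that extend, branch or cap O-glycans, 0 were higher (3 at an unadjusted p under 0.05, limma) and 1 lower in GALNT3 KO, and 3 were higher and 4 lower in the group labelled GALNT3/T6 KO (33.3% and 44.4%). B4GALT5, a galactosyltransferase that elongates branches, rose by 2.78 there (adjusted p = 0.00018 from limma), next to 0.46 in GALNT3 KO (adjusted p = 0.0629 from limma). ST6GALNAC3, a sialyltransferase for sialyl-T, rose by 1.07 (adjusted p = 0.00298 from limma). GCNT2, the branching enzyme of the I blood group antigen, was lower in both groups, at -0.89 and -0.82. Their median was -0.02 in GALNT3 KO and -0.14 in the group labelled GALNT3/T6 KO.

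Supply of the sugar nucleotides was read on 10 genes. In GALNT3 KO 2 were higher and 3 lower, and in the group labelled GALNT3/T6 KO 6 were higher and 2 lower (60% and 20%), with a median of 0.46. SLC35A2, the Golgi transporter of UDP-galactose, the donor that C1GALT1 uses, stood at 0.48 in GALNT3 KO and at 1.58 in the group labelled GALNT3/T6 KO (adjusted p = 0.000489 from limma). UGP2, which makes UDP-glucose, was lower in GALNT3 KO, at -0.64 (adjusted p = 0.0255 from limma), and higher in the other group, at 0.28 (adjusted p = 0.041 from limma). Between the groups 2 initiating transferases, 2 other enzymes and 4 supply genes were higher in the group labelled GALNT3/T6 KO, and 5, 1 and 0 were lower (5, 2 and 1 at an unadjusted p under 0.05, limma), where 11.8% of all genes were called in each direction.

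**Figure D3:**
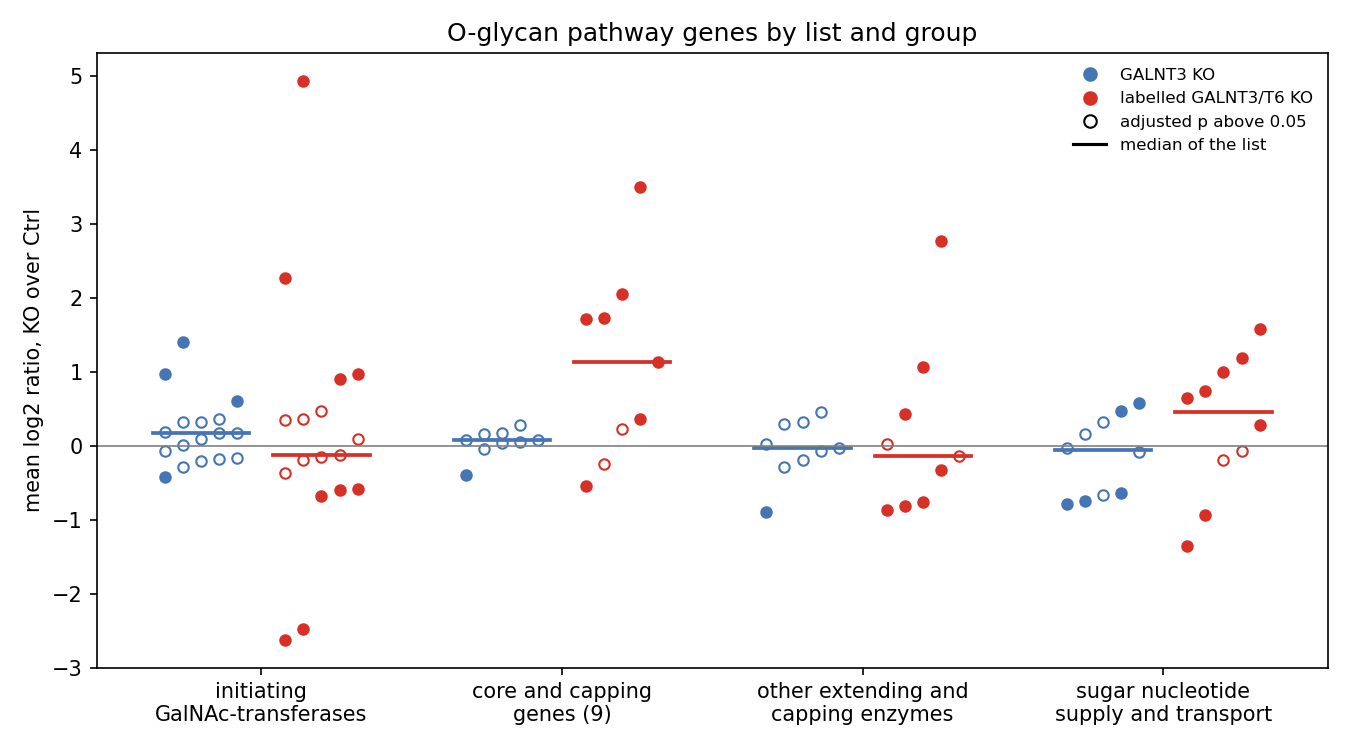
Mean log2 ratio of KO over Ctrl (vertical axis) of every gene tested in 4 groups of the O-glycan pathway, for GALNT3 KO and for the arrays labelled GALNT3/T6 KO; filled points have an adjusted p of at most 0.05 and lines are medians. The median of the 9 members in the group labelled GALNT3/T6 KO is 1.13, against -0.12, -0.14 and 0.46 for the other lists.

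For each member with a mean log2 ratio of at least 1 in size, the 2 genes nearest to it over the 4 ratios were read as a description. Distance is the square root of the summed squared differences in log2 ratio. GPRC5C (distance 0.124) and PTPMT1 (0.194) lay nearest to C1GALT1. ALPK2 (0.123) and DHX58 (0.169) were nearest to C1GALT1C1, and PTPRE (0.081) and ELOVL7 (0.121) to GCNT1. SH3GLB1 (0.091) and RIOK3 (0.105) were nearest to GCNT3, and CLDN11 (0.146) and OSGIN2 (0.155) to ST3GAL1. With 4 arrays in 2 groups, such a pattern is little more than a pair of group means.

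Since the brighter C1GALT1 probe rose with C1GALT1C1, GCNT1 and GCNT3, the 250 bases before the transcription starts of these genes were set side by side. RefSeq promoter windows (GRCh38.p14) were read for 5 of the 9 genes, 8 windows in all, of which 4 belong to GCNT1. No window was read for ST3GAL1 or B3GNT6, which were also called higher. Capitals mark the GC box GGGCGG, which Sp1-type factors bind, and the CCAAT box, on either strand. Of the 4 GCNT1 windows the one with the most GC boxes is shown.
C1GALT1, chr7:7182294-7182543, plus strand: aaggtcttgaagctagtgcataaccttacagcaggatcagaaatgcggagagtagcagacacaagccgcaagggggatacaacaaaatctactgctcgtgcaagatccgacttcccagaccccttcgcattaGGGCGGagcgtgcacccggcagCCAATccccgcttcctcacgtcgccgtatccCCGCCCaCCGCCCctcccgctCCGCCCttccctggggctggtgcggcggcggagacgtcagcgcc
C1GALT1C1, chrX:120630055-120630304, minus strand: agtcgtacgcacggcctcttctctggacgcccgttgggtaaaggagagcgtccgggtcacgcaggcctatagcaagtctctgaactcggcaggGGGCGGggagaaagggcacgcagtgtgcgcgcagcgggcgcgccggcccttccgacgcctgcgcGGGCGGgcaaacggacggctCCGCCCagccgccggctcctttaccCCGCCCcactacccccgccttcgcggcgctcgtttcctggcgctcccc
GCNT1, chr9:76458932-76459181, plus strand: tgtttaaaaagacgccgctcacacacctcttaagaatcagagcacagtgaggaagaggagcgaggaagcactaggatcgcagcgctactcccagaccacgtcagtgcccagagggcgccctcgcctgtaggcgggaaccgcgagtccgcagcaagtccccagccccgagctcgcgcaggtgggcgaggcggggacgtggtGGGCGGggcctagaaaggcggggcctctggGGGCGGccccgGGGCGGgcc
GCNT3, chr15:59611533-59611782, plus strand: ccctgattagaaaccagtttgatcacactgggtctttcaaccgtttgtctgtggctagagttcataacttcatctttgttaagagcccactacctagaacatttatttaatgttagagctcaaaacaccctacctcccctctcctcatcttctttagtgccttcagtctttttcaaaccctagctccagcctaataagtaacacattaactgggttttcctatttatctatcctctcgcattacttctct
The C1GALT1 window holds 4 GC boxes and 1 CCAAT box, and that of C1GALT1C1 4 GC boxes. The GCNT1 window shown holds 3, while the other windows of GCNT1 hold 0, 1 and 0. The GCNT3 window holds 0 of either, and it has 40.4% G and C where C1GALT1 has 62.4% and C1GALT1C1 71.6%. GCNT4, which did not rise, has 2 GC boxes. Over all 35116 windows of this length, 42.6% hold a GC box and 32% a CCAAT box. None of the member windows holds TATAAA (10.7% of all windows) or TGANTCA (AP-1, 6.57%), on either strand. The rising genes shown here thus did not share 1 set of these letters in their windows, and a match is not a bound site.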

How the data were processed

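Total RNA of 4 KO clones was hybridized with Cy3-labelled Ctrl RNA on 4 two-colour Agilent 4 × 44K arrays of 1 slide. The authors deposited the scanner spot intensities, extracted with Agilent Feature Extraction (version 8.5.1.1 per the labels, 10.7.3.1 per the file headers), and a table that holds the same log10 ratio of Cy5 over Cy3, rounded. Its array medians were -0.002 to 0.009. The methods call the dyes reverse-color, which leaves a dye swap between arrays unstated, and the labels give Cy5 to KO on every array. Probe positions (hg19) came from the file headers and columns. From the intensities, background was corrected with normexp (offset 50) and dyes by loess in limma 3.58.1 (R 4.3.3). Control spots got weight 0 and 84 to 162 outlier-flagged spots per array were dropped. Probes well above background in a channel on both arrays of a group were kept, and the brightest stood for its gene. limma fitted all 4 arrays with a mean per group, and 2 residual degrees of freedom remained. The fit was tested on simulated data. Channel levels were read after Aquantile scaling. The number of arrays limits the precision. Replicates are clones.

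The members and pathway lists were chosen with earlier results of these data known. All 9 members were named with every probe, with GALNT3 and GALNT6 as the check of labels, the 2 nearest genes of each member at a mean log2 ratio of at least 1 in size, up to 3 genes of each pathway list (those called in the most comparisons, then by size) and cell type markers. One gene that this rule names is not reported here. KRT18, VIM, COL1A1, MUC16 and EPCAM were picked after their values were seen. Alternatives were no background correction, Agilent's log ratio, median centring, the deposited table, other dim filters, the mean of all probes, a group's own arrays, a replicate block, each array left out, the study's criterion and the methods' t-test, named there for other assays. The crossed block, KO levels, single probes and turned channels were chosen after seeing the data. RefSeq promoter windows were matched by symbol.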

Additional observations from a re-analysis of the deposited data

How the results depend on the processing

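The rises of C1GALT1, C1GALT1C1, GCNT1, GCNT3 and ST3GAL1 on the arrays labelled GALNT3/T6 KO kept their direction and call under every alternative that gave a value, with these exceptions. After adjustment the methods' t-test called 0 members in each comparison; at an unadjusted p of at most 0.05 it passed 1, 5 and 7, and the 5 were C1GALT1, C1GALT1C1, GCNT1, GCNT4 and B3GNT6, so GCNT3 and ST3GAL1 missed it. The dimmer C1GALT1 probe alone was lower, and turning the channels of these arrays reversed every ratio. GCNT1 had no value when signal was required on all 4 arrays. The dimmer GCNT3 probe alone is not counted here, because its Ctrl channel was not well above background. The count of 1 member in GALNT3 KO fell to 0 without background correction, with Agilent's log ratio, median centring, the deposited table, the replicate block, the crossed pairing and the study's criterion, and ran from 0 to 1 with an array left out. Leaving out an array gave 6 members on the arrays labelled GALNT3/T6 KO and from 2 to 6 in the difference. In GALNT3 KO, rises made up 42.5% of all gene calls, and 23.5% after median centring.

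The following small GALNT3 KO ratios changed sign. With Agilent's log ratio C1GALT1 was -0.12, C1GALT1C1 -0.11, ST6GALNAC2 -0.13 and ST3GAL1 0.31, and the deposited table gave -0.12, -0.11, -0.13 and 0.31. Median centring gave -0.0009942 for C1GALT1 and -0.19 for C1GALT1C1, and the mean of all probes -0.36 for C1GALT1 and 0.10 for ST3GAL1. With an array left out C1GALT1 ran from -0.062 to 0.23, C1GALT1C1 from -0.10 to 0.27, B3GNT6 from -0.076 to 0.17 and ST3GAL1 from -0.14 to 0.053, the opposite sign being without GALNT3 KO replicate 2. On the arrays labelled GALNT3/T6 KO GCNT4 turned to 0.0671 with Agilent's log ratio and with the deposited table. The difference of ST6GALNAC1 was 0.000637 and 0.000668 under these, -0.14 to 0.041 with an array left out (above 0 without GALNT3 KO replicate 1 and without GALNT3/T6 KO replicate 2), and 0.11 by KO level, where that of GCNT4 was -0.32. With the other probe alone C1GALT1 was -0.80 in GALNT3 KO and -0.40 in the group labelled GALNT3/T6 KO, GCNT3 -0.031 and ST3GAL1 0.25 in GALNT3 KO, B3GNT6 -0.0036 on the arrays labelled GALNT3/T6 KO and -0.047 in the difference, and ST6GALNAC2 0.26 and 0.10 in the same comparisons. The cause was not tested.

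With the channels of the arrays labelled GALNT3/T6 KO turned, their ratios were -2.06 for C1GALT1, -1.72 for C1GALT1C1, -3.50 for GCNT1, -1.73 for GCNT3, 0.24 for GCNT4, -0.37 for B3GNT6, -0.23 for ST6GALNAC1, 0.55 for ST6GALNAC2 and -1.13 for ST3GAL1. The differences from GALNT3 KO that changed sign were then -2.15 for C1GALT1, -1.80 for C1GALT1C1, -3.68 for GCNT1, -1.90 for GCNT3, -0.41 for B3GNT6, 0.51 for ST6GALNAC2 and -1.09 for ST3GAL1, and 2 members were called higher and 6 lower.

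Deviations of same-numbered arrays correlated at r = -0.239 over 27187 genes, so they tended to go in opposite directions. The reason was not tested. With the replicate block 0, 6 and 5 members were called, and with the crossed pairing 0, 7 and 6.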
